A study of Arabidopsis thaliana with 4 samples.

Results

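This section describes 59 single genes of Arabidopsis thaliana whose transcripts were at least 8-fold lower in inflorescences of the mutant apetala3 than in wild-type inflorescences. Total RNA of both genotypes was hybridised together on each of 4 two-channel Operon oligonucleotide arrays. The apetala3 RNA was in channel 1 on arrays 1 and 3 and in channel 2 on arrays 2 and 4. The labels give no allele, plant background, age or flower stage. Nor is it stated if each array had RNA of its own plants, so the spread between arrays may be technical.

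The genes were chosen by their measured log2 ratios of apetala3 over wild type. A gene entered if a probe named it alone, if it was measured on at least 3 arrays, if its mean was -3 or lower and if it was below 0 on each measured array. Of 5443 single genes on the arrays, 5330 were measured on at least 3 arrays, and 71 of these (1.33%) met the rule. From the 71, 12 listed genes were set aside, among them ATA27 and SWEET9, which left the 59. The values of these genes are therefore a description of how they were chosen and are given without a test. The sign rests on channel 2 as the numerator, which the labels do not state. That direction was called likely because anther genes were lower in it, and with the sign turned every decrease below reads as an increase.

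APETALA3 belongs to the MADS-box family of transcription factors and works as a partner of PISTILLATA to give petals and stamens their identity. Strong mutants form sepals where petals would stand and carpel tissue where stamens would, so anthers, their tapetum and pollen are missing. Transcripts made in those organs alone are known to be depleted from such flowers. In whole inflorescences, fewer cells of a type and less RNA per cell cannot be told apart. Of AP3 and PI, 0 were measured on at least 3 arrays by a probe naming the gene alone. By such a probe the mutated gene itself therefore gave no check of the labels.

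Few of the 59 genes carry a name. The reference gene table gives a symbol for 2 of them, EXPA24 and PUB15, and a locus tag alone for the other 57. Symbols were given for 3.39% of the 59 genes, against 9.87% of all 5330 single genes. The 12 genes set aside included 9 with a symbol, and 15.5% of all 71 that met the rule had one, so nothing is read from the low share. All 59 are annotated as protein-coding. EXPA24 is an alpha-expansin, a protein that loosens cell walls, and PUB15 is a U-box protein, a class of ubiquitin ligases. No role is given below for the genes known by locus tag alone, because the tables used here annotate none.

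The mean log2 ratios of the 59 genes ran from -5.47 to -3.02, with a median of -3.56, which is 11.8-fold lower in apetala3. The deepest reduction was 44.3-fold and the smallest 8.09-fold. The SD over arrays had a median of 0.68 on the log2 scale and ran from 0.27 to 1.54. In the fit over all features limma called 59 of 59 lower, with standard errors of 0.13 to 0.57, where 10.1% of all 25588 genes and probes were called lower and 8.43% higher. With each array centred on its median that split was 2905 lower and 1065 higher, in place of 2579 lower and 2158 higher. The calls were 1476 lower and 342 higher without array 1, 1590 lower and 495 higher without array 2, and 1925 lower and 868 higher without array 3. The 59 were chosen on the same values, so their calls add nothing to the rule. Within the set, 2 genes were at least 32-fold lower and 13 at least 16-fold lower. On every array where it was measured, each of the 59 genes was at least 2-fold lower, 56 were at least 4-fold lower and 23 at least 8-fold lower.

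**Figure D1:**
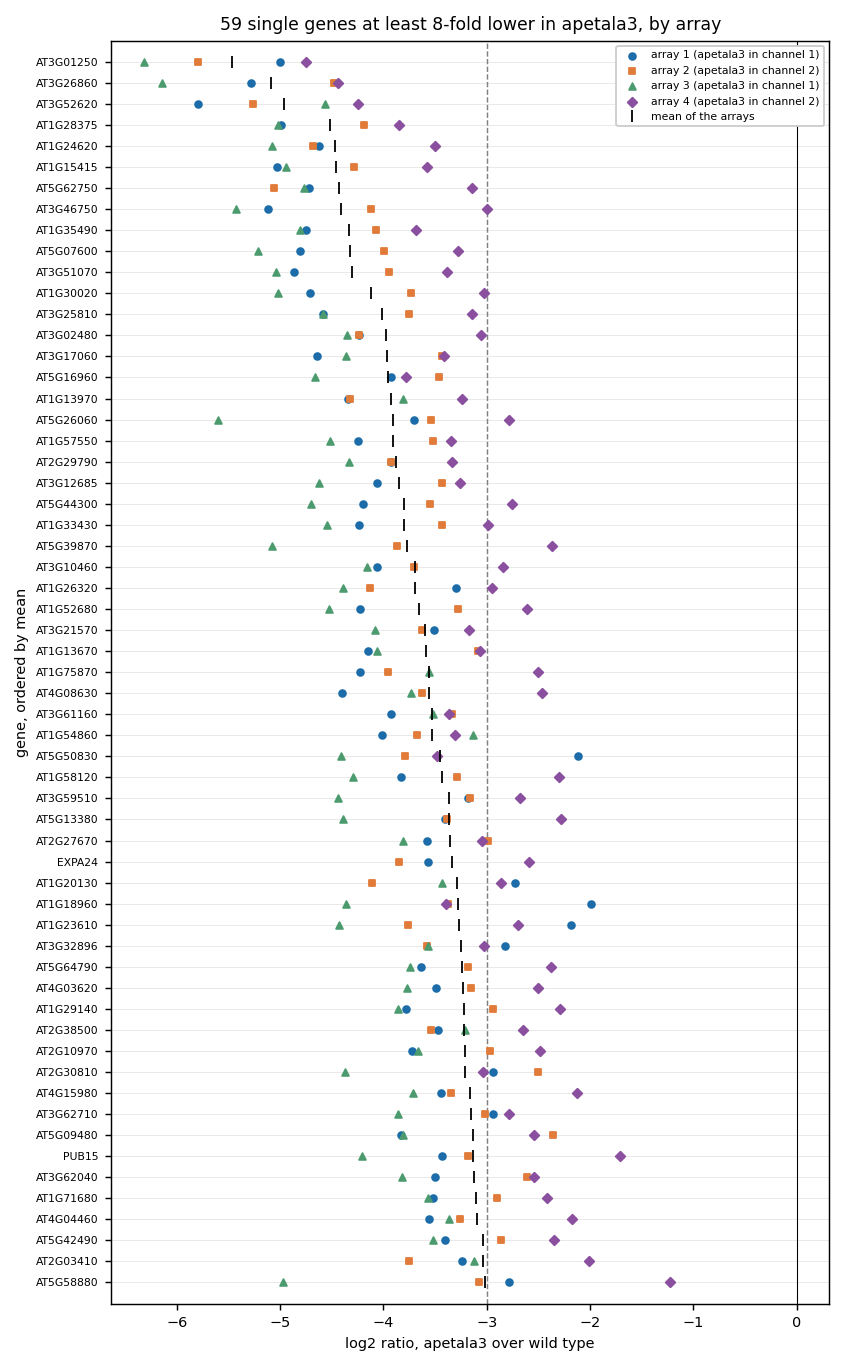
Log2 ratio of apetala3 over wild type (x axis) for each of the 59 genes (rows, lowest mean at the top), with a symbol for each of the 4 arrays, a black tick for the mean and a dashed line at the limit of -3. Array 4 (diamonds) lies furthest right for most genes and array 3 (triangles) furthest left.

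The 10 genes with the lowest means all carry a locus tag only. AT3G01250 had the lowest mean of the set, with log2 ratios of -5.01, -5.79, -6.32 and -4.75 on arrays 1 to 4 and a mean of -5.47 ± 0.72 (SD, n = 4 arrays). AT3G26860 followed, with -5.28, -4.48, -6.14 and -4.44 and a mean of -5.09 ± 0.80. These were the 2 genes past 32-fold, and none of their single values lay above -4.44. AT3G52620 had -5.79, -5.26, -4.56 and -4.24, a mean of -4.96 ± 0.70. Unlike the first pair, it was lowest on array 1 and not on array 3. AT1G28375 had -4.99, -4.19, -5.02 and -3.85, with arrays 1 and 3 close together and below the others. AT1G24620 had -4.63, -4.68, -5.08 and -3.499, so that only array 4 stood clear of the remaining values. AT1G15415 had -5.03, -4.28, -4.94 and -3.57, the same order of orientations as AT1G28375.

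The next 4 genes had means between -4.43 and -4.32. AT5G62750 had -4.72, -5.06, -4.77 and -3.15, and array 2 was its lowest. AT3G46750 had -5.12, -4.12, -5.42 and -2.999, a spread of 2.43 between its lowest and highest array. For AT1G35490 the log2 ratios were -4.75, -4.08, -4.81 and -3.69. AT5G07600 had -4.81, -3.995, -5.21 and -3.28. In these 4 genes array 4 was always the least reduced. The 10 lowest means were mostly the lowest values on single arrays as well: 9, 7, 6 and 7 of them were among the 10 lowest of the 59 on arrays 1, 2, 3 and 4.

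The other 49 genes fell into narrower bands. Between -4.31 and -4.02 lay AT3G51070, AT1G30020 and AT3G25810. Between -4 and -3.5 lay 20 genes, of which AT3G02480, at -3.97, was the lowest. The others were AT3G17060, AT5G16960, AT1G13970, AT5G26060, AT1G57550, AT2G29790, AT3G12685, AT5G44300, AT1G33430, AT5G39870, AT3G10460, AT1G26320, AT1G52680, AT3G21570, AT1G13670, AT1G75870, AT4G08630, AT3G61160 and AT1G54860. The largest group was the 26 genes between -3.5 and -3. It held EXPA24, PUB15, AT5G50830, AT1G58120, AT3G59510, AT5G13380, AT2G27670, AT1G20130, AT1G18960, AT1G23610, AT3G32896, AT5G64790 and AT4G03620, and further AT1G29140, AT2G38500, AT2G10970, AT2G30810, AT4G15980, AT3G62710, AT5G09480, AT3G62040, AT1G71680, AT4G04460, AT5G42490, AT2G03410 and AT5G58880.

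The limit of -3 cut through a continuous run of values. Just inside it lay AT4G04460 at -3.09, AT5G42490 and AT2G03410, both at -3.03, and AT5G58880 at -3.02. Just outside lay AT3G60710 at -2.998, AT1G27710 at -2.99, and EXPB5 and AT1G43630, both at -2.98. The SDs of these 8 genes, 0.54 to 1.54, were larger than the steps between them. With the limit at -2.5 the set held 102 genes, and at -3.5 it held 33.

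EXPA24 was measured on 3 arrays, at -3.57, -3.85 and -2.59 on arrays 1, 2 and 4, with a mean of -3.34 ± 0.66 (SD, n = 3 arrays). Its value on array 3 stood at the 100-fold limit of the deposited ratios, on the side of a decrease, and was treated as not measured. A probe listing EXPA24 together with EXPA21, EXPA23 and EXPA25 had -2.78, -3.04, -3.23 and -1.33, a mean of -2.59 ± 0.86. Of the 5 expansin genes with a probe of their own, 3 were at least 2-fold lower, against 6.10% of all single genes. EXPA24 was chosen for its decrease and led to the family, and without it the count was 2 of 4, from which nothing is read. Besides EXPA24 these were EXPB5, a beta-expansin, at -2.98 ± 0.71 and EXPA21 at -1.32 ± 0.41. EXPA20 was at 0.90 ± 0.11 and the expansin-like gene EXLB1 at 0.34 ± 0.29 (SD, n = 4 arrays each), so the family did not move as a block.

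PUB15 had -3.43, -3.19, -4.21 and -1.71 on arrays 1 to 4, a mean of -3.13 ± 1.05 (SD, n = 4 arrays). Array 4 was its least reduced and array 3 its lowest. The other U-box genes found by a symbol of the same stem, a search made after their values were seen, were PUB24 at 0.35 ± 0.24 and PUB54 at 0.18 ± 0.22. AT5G39870 was the other gene with 3 measured arrays. It had -3.86, -5.08 and -2.37 on arrays 2 to 4, and its value on array 1 stood at the limit, again on the side of a decrease. AT3G62710 was the 1 gene with more than 1 probe of its own. Its probes gave -3.11 ± 0.45 and -3.20 ± 0.56 (SD, n = 4 arrays each), a gap smaller than either SD, and its averaged values were -2.94, -3.02, -3.86 and -2.79. For the remaining 58 genes the decrease rests on 1 probe each.

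The spread between arrays differed widely among genes of like means. AT5G58880 had the widest range, with -2.79, -3.08, -4.97 and -1.23 on arrays 1 to 4, or 3.74 between the extremes. AT3G61160 had the narrowest, with -3.92, -3.33, -3.52 and -3.36, or 0.59. AT5G58880 no longer met the rule when array 2 or array 3 was left out. Across the 57 genes with 4 values, the SD and the mean were related with a Pearson r of -0.03 (Spearman rho -0.07). These points share the same 4 arrays and were cut at a mean of -3 by the rule, so the value holds inside the set only. The median SD was 0.68 in the 57 genes, against 0.24 over all 5170 single genes with 4 values. Other features at least 8-fold lower had a like spread, with a median SD of 0.69 in 120 probes that list several genes. It was 0.71 in 206 probes with no listed gene and 0.78 in the 12 genes set aside.

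Arrays 3 and 4 took the ends of the range in most of the set. The 59 genes had medians of -3.88, -3.55, -4.36 and -2.98 on arrays 1 to 4. Of the 57 genes measured on all 4, array 4 was the least reduced in 46 (80.7%) and the lowest in 0. Array 3 was the lowest in 39 (68.4%) and the least reduced in 1, AT1G54860. The full order of the medians, array 3 lowest and then 1, 2 and 4, held in 26 of the 57. Over all 5170 single genes with 4 values, array 4 was the highest in 26.2% and array 3 the lowest in 26.8%. The places of arrays 3 and 4 were shared by other probes at least 8-fold lower and measured on 4 arrays. Array 4 was the highest in 85.8% of 120 probes that list several genes and in 81.1% of 206 probes with no listed gene. Array 3 was the lowest in 62.5% and 69.9% of these. The ratios of all single genes also had the smallest interquartile range on array 4, at 0.44, against 0.51, 0.61 and 0.54 on arrays 1 to 3.

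In 11 of the 57 genes another array than array 4 was the least reduced. Array 2 was so in 5, AT5G16960, AT3G61160, AT2G27670, AT2G30810 and AT5G09480. Array 1 was the least reduced in 5 others. AT5G50830 had -2.12 there against -3.79, -4.41 and -3.48 on arrays 2 to 4. AT1G18960 had -1.99 against -3.38, -4.36 and -3.39, and AT1G23610 had -2.18 against -3.77, -4.43 and -2.70. Array 1 stood 1.36 and 1.38 above the next array in AT5G50830 and AT1G18960 but 0.51 in AT1G23610, while array 3 was near the median of the set in each. AT1G20130 and AT3G32896 were the other two, with -2.73 and -2.83 on array 1, and both were lowest on array 2. No test of these genes was made, since they were picked from the values.

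**Figure D2:**
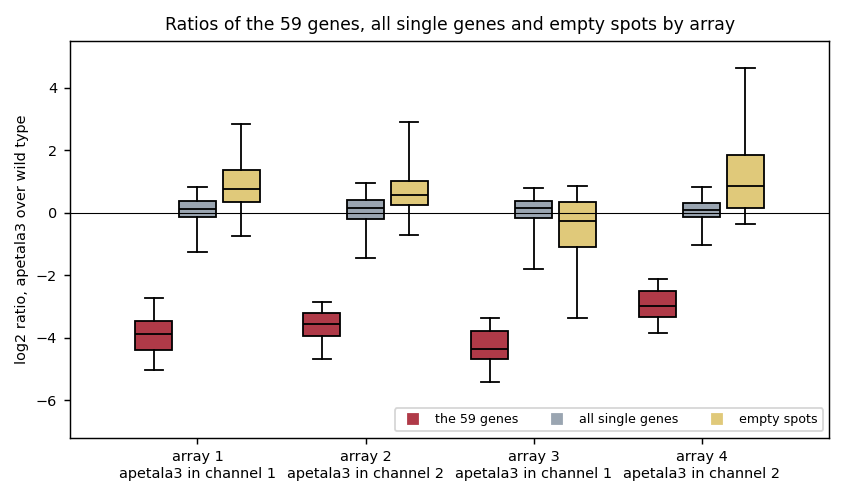
Log2 ratios of apetala3 over wild type on each array for the 59 genes, for all single genes on 3 or more arrays and for empty spots (boxes are quartiles with the median, whiskers the 5th and 95th percentiles). The 59 genes have medians of -3.88, -3.55, -4.36 and -2.98 on arrays 1 to 4, while all single genes have medians just above 0 and the medians of empty spots lie above 0 on arrays 1, 2 and 4 and below it on array 3, where their box spans 0.

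Spots without any probe gave a background on the same arrays. The 59 genes had no value above -1.23, while the medians of empty spots were 0.76, 0.56, -0.27 and 0.84 on arrays 1 to 4. These were taken over 152 to 274 of 424 empty spots on each array. Missing values and values at the 100-fold limit were left out, also from the counts that follow. Single empty spots overlapped the range of the set, with lowest values of -4.55, -3.17, -4.43 and -2.11. On array 3, 77 of 274 empty spots were at least 2-fold lower, 43 at least 4-fold and 22 (8.03%) at least 8-fold lower. At least 8-fold lower on arrays 1, 2 and 4 were 2, 1 and 0 empty spots. Array 3, where the genes were lowest, was also the array where the median of empty spots was lowest, and array 4, where the genes were least reduced, was where it was highest. Arrays 1 and 2 went the other way. The genes were lower on array 1, at -3.88 against -3.55, while empty spots were higher there, at 0.76 against 0.56. The part of the offset of empty spots in the order of the arrays was not tested. All single genes had medians of 0.12, 0.14, 0.13 and 0.09, which do not follow that order. With each array centred on its median, the 59 genes had a median of -3.66 in place of -3.56.

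The rule required a value below 0 on each array, so decreases in both channel orientations were given by the choice of the genes. Their sizes can be set side by side. The mean of arrays 1 and 3, with apetala3 in channel 1, minus that of arrays 2 and 4, with it in channel 2, was below 0 in 55 of the 59 genes and had a median of -0.89. For AT5G39870 and EXPA24, the channel 1 side rests on array 3 alone and on array 1 alone. The difference ran from -1.96 in AT5G39870 to 0.41 in AT1G20130. The mean that chose the genes does not use this difference, so it was tested. In the fit over all 25588 genes and probes 0 of the 59 genes passed, with a smallest limma adjusted p of 0.655, and 0 of all features did, in a comparison of 2 arrays against 2. The 59 genes share these arrays and are not replicates of the difference. At an unadjusted p under 0.05 there were 26 of the 59 genes (44.1%), against 6.78% of all genes and probes. The share was 37.5% in the 128 probes that list several genes and 40.7% in the 209 without a listed gene that met the same rule, and 6 of the 12 genes set aside. Across the 57 genes with 4 values it had a Pearson r of 0.15 with the mean.

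**Figure D3:**
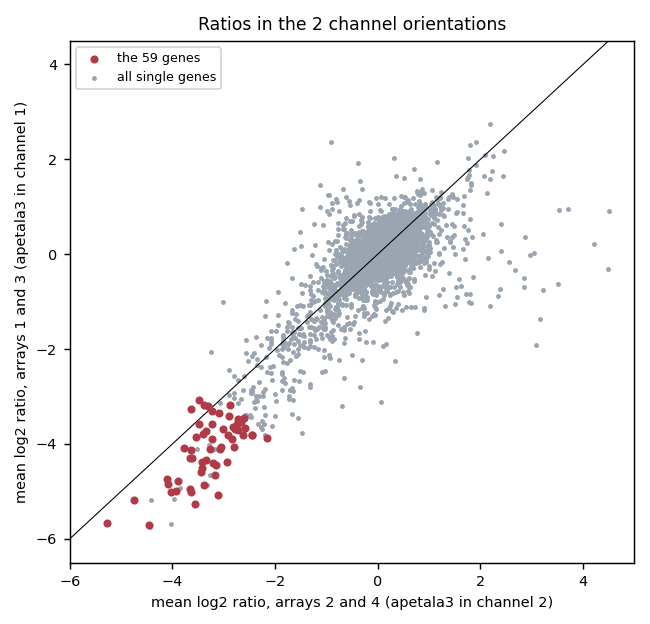
Mean log2 ratio of arrays 1 and 3, with apetala3 in channel 1 (y axis), against that of arrays 2 and 4, with it in channel 2 (x axis), for the 59 genes and for all single genes, with the line of equal values. The 59 genes lie in the lower left, 55 of them under the line.

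Each array was also read as one the choice had not used. The rule was applied to the other 3 arrays, with the same 12 genes set aside, and the left-out array was then read. Without array 1 the rule chose 58 genes, 52 of them in the set, and the 57 measured on array 1 had a median of -3.92 there, from -5.79 to -1.48. At least 4-fold lower on array 1 were 54 of the 57, against 3.04% of all single genes with values on the other 3 arrays. Without array 2 it chose 62 genes, whose values on array 2 ran from -5.79 to -2.31 with a median of -3.45. All 62 were at least 4-fold lower there, against 3.58% of single genes.

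Without array 3 the rule chose 48 genes, and the 47 measured there had a median of -4.39. Of these, 46 were at least 4-fold lower, against 4.12% of single genes, and the exception was AT2G05540 at 0.02. Without array 4 it chose 83 genes, with values on array 4 from -4.75 to -0.09 and a median of -2.54. At least 4-fold lower on array 4 were 67 of the 83, against 2.15% of single genes. The left-out array thus showed a decrease in nearly every gene. The arrays may share RNA, so this may be repeat measurement of the same RNA and is not separate support for the genes. On array 4 the median of -2.54 was smaller in size than the -3.505 that the same genes had on arrays 1 to 3. Those arrays had chosen the genes. The genes chosen without array 1, 2 or 3 had medians of -3.60, -3.48 and -3.54 on the arrays that chose them. On the left-out array these were -3.92, -3.45 and -4.39. The part of the choice in these gaps was not tested.

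Probes that list a gene of the set together with other genes gave another view of the same transcripts or their relatives. There were 23 such probes, and they covered 21 of the 59 genes. Their means ran from -5.11 to 0.77 with a median of -0.15, while the same genes' own probes were all at -3 or lower. At least 8-fold lower were 2 of the 23, and 5 were at least 2-fold lower, or 21.7%, against 7.99% of all 7333 tested probes that list several genes. The remaining 18 lay within 2-fold of no change.

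The pair that shared the depth of the decrease belonged to AT5G39870 and AT3G02480. AT3G02480 had -4.24, -4.24, -4.36 and -3.06 on its own probe, a mean of -3.97 ± 0.61, and the probe listing it with AT5G53820 and AT5G38760 had -4.94, -4.42, -5.07 and -3.59, a mean of -4.505 ± 0.67 (SD, n = 4 arrays each). AT5G39870 was listed with AT3G28980 on both of 2 further probes. One of them had -5.88, -4.73 and -4.71 on arrays 1, 2 and 4, and the other had -0.12, 0.26 and 0.18 on arrays 1, 3 and 4. These probes carry the same gene names, and their means were -5.11 and 0.11. What each of them hybridises to cannot be read from the annotation used here.

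AT1G30020 was at -4.12 ± 0.91 on its own probe and at -1.67 ± 0.48 on the probe it shares with AT5G46230 and AT4G24130. AT5G64790 was at -3.24 ± 0.62 alone and at -1.40 ± 0.05 with AT5G18220, AT3G24330 and AT3G04010 (SD, n = 4 arrays each). In both the shared probe moved the same way by less. Of the 18 shared probes within 2-fold, the lowest were those of AT5G58880, at -0.99 ± 0.37, and AT2G03410, at -0.88 ± 0.15, and the others ran from -0.46 to 0.77. AT1G24620 was at -4.47 ± 0.68 on its own probe, while the probe listing it with AT1G73630 and AT1G18210 was at -0.03 ± 0.28. AT4G04460 was at -3.09 ± 0.62, while its probe with APA1, an aspartic protease, and AT1G62290 was at -0.02 ± 0.30. At the top end AT5G13380 was at -3.36 ± 0.86 alone and at 0.77 ± 0.29 on the probe with AT5G13350, AT5G13360 and AT5G13370.

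**Figure D4:**
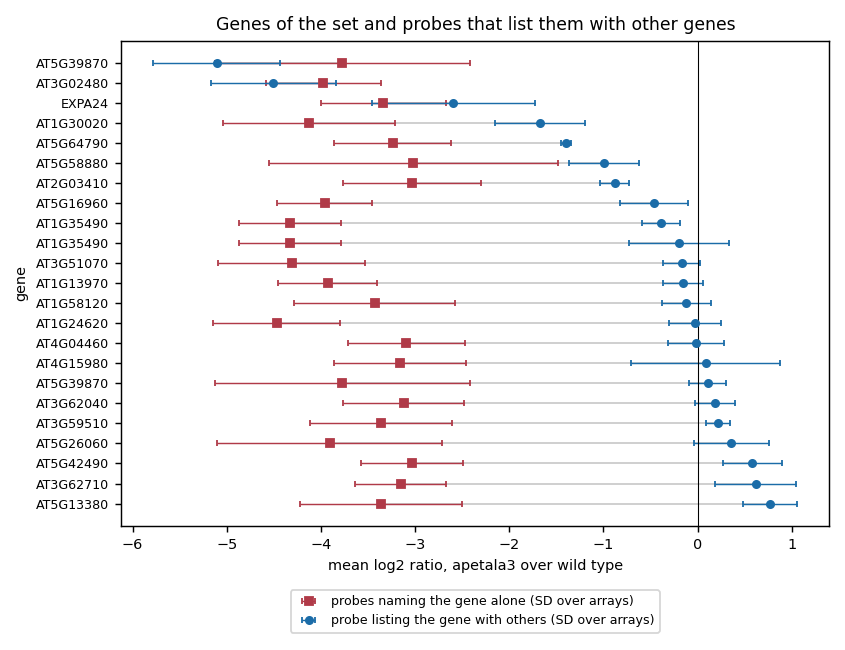
Mean log2 ratio of apetala3 over wild type for genes of the set on the probe that names them alone (squares) and on each of 23 probes that list them with other genes (circles), with the SD over 3 or 4 arrays as bars. The squares all lie at -3 or lower, and most circles lie near 0.

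The genes were spread over the genome by their locus tags, with 19 on chromosome 1, 6 on chromosome 2, 16 on chromosome 3, 4 on chromosome 4 and 14 on chromosome 5. As shares of the set these were 32.2%, 10.2%, 27.1%, 6.78% and 23.7%, against 24.7%, 14.8%, 21.7%, 14.6% and 23.7% of all single genes measured. None of the 59 stood directly beside another in the order of protein-coding genes of assembly TAIR10.1. Within 30 genes of each other were AT1G13670 and AT1G13970, which lay 30 apart, and PUB15 and AT5G42490, which lay 15 apart. AT1G75870 lay 8 genes after sks18 and 7 before ATA27, both of which were at least 8-fold lower and set aside, so that 3 genes reduced to this depth stood within 15 positions on chromosome 1. AT5G42170, also at least 8-fold lower and set aside, lay 22 genes before PUB15. No share for such groups among all genes was computed, so nothing is read from them.

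By a probe of their own, 23 immediate neighbours of 21 of the 59 genes were measured. Their median log2 ratio was 0.24, against 0.14 for all single genes. Of the 23, 2 were at least 2-fold lower, or 8.70%. This is near the 6.10% of all single genes, so nothing is read from it. At least 2-fold higher were 0 of the 23. The lower ones were AT3G61170, beside AT3G61160, at -2.504 ± 1.11, and AT3G26870, beside AT3G26860, at -2.26 ± 1.55 (SD, n = 4 arrays each). AT3G26870 had -1.97, -3.44, -3.45 and -0.18 on arrays 1 to 4, so it was near 0 on array 4, while AT3G26860 itself was at -4.44 there.

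Markers of floral cell types were measured by name only in part. Of 14 tapetum and microspore genes, 2 were measured on at least 3 arrays by a probe of their own. Both were called lower, ATA20 at -2.76 and ATA27 at -4.10. Of 12 pollen genes, 2 were measured and both were called lower, TUA1, a pollen alpha-tubulin, at -0.44 and AT1G29140, a gene of the set, at -3.22. AT1G29140 had been put on the pollen list from general knowledge, and the tables used here do not annotate it. Of 3 nectary genes, SWEET9 alone was measured, at -4.79. Of 8 carpel and ovule genes, 2 were measured, with CES called higher at 1.85 and INO at 0.20 not called. Neither of the 2 measured photosynthesis genes of 4 was called, with PSAN at 0.30 and PSBW at 0.39. The anther lists bear on how the direction was set, so their sign is not separate evidence. Keyword families drawn from gene names held 1 of the 59 genes, EXPA24 among the expansins. PUB15 was not matched by the F-box and ubiquitin keywords, and 57 genes carry a locus tag alone. The set could therefore not be ordered by function, and nothing is read from the count of 1.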

How the data were processed

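The authors deposited 1 table of log2 channel ratios, 1 column per array, normalized by a method that the labels refer to an earlier publication. The labels state no scanner, background correction, normalization method or numerator. The log2 scale was read from the values, which end at the log2 of 100 on both sides. As deposited, array medians were -0.11, 0.13, -0.09 and 0.08, so the upstream centring is unknown. Arrays of opposite orientation correlated below 0 across gene probes (median Pearson r -0.70 over 4 pairs), and arrays 1 and 3 were multiplied by -1 so that each reads apetala3 over wild type.

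Values at the 100-fold limit were dropped. Of 26474 gene probes, 5784 list 1 gene, 7497 several and 13193 none. Of the first, 5756 matched the reference gene table by gene ID. Probes naming the same gene were averaged per array. Means over arrays were tested against 0 with limma 3.58.1 (lmFit, eBayes, intercept only) in R 4.3.3 over all 25588 genes and other probes on at least 3 arrays, and p-values were adjusted by Benjamini-Hochberg, with 0.05 as threshold. The orientation difference was fitted the same way. The fits were also run on simulated data, with noise drawn independently for each feature and array. Noise shared by many genes on the same array was not simulated, so nothing is read from these runs.

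The genes, lists and tests were chosen with earlier results of these data known. Each gene of the set was named, with values on every array for the 10 lowest means, genes with several probes or 3 arrays, and the widest and narrowest ranges; further genes were named after their values were seen. Families were matched by 18 keyword patterns in symbols and synonyms, since no descriptions were at hand. Promoter and protein sequences were not used here. With 4 arrays, precision is limited by their number.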

Additional observations from a re-analysis of the deposited data

Results flagged for a closer look

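For AT3G02480, array 4 lay far from the other 3 arrays. It had -3.06 there, against a mean of -4.28 on arrays 1 to 3. Its gap to the nearest array, divided by the gene's whole range, was 0.908, above Dixon's 95% critical value for 4 values. Of the 57 genes with 4 values this was the 1 past that value, where chance gives about 2.85. In log2 units the gap of 1.18 was not the widest, with 1.58 in AT5G62750 and 1.55 in AT5G58880. Array 4 was the least reduced array in 46 of the 57, and the cause was not tested.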

How the results depend on the processing

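The set held 59 genes, and 48 to 83 when 1 array was left out in turn. Of these, 52, 55, 46 and 57 were genes of the set without arrays 1 to 4. A limit of -2.5 gave 102 genes and a limit of -3.5 gave 33. With every sign turned 0 genes met the rule, since no single gene had a mean of 3 or higher. Centring gave 71 genes, values at the 100-fold limit kept gave 60, the median over arrays 62, a value on all 4 arrays 57, and the arrays with apetala3 in channel 1 or in channel 2 alone gave 87 and 42. Requiring each probe at -3 or lower, or the median of probes, gave 59. The median of the set ran from -3.80 to -3.43 without 1 array, and was -3.90 and -3.23 in the 2 orientations. Over all features, 1818 to 5028 were called without 1 array, with 1818, 2085 and 2793 without arrays 1, 2 and 3, against 4737 with all. With array weights 6807 were called, 3751 higher and 3056 lower. The cause of these shifts was not tested. No paired analysis was possible because the pairing is already in the values: each ratio sets both genotypes against each other within 1 array, and no second group shares the array numbers. Genes were measured by 1 probe in 58 of 59 cases, and ratios alone were used, so signal over background was not assessed.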

Other observations

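AT2G44850 and AT1G77290 had means of -3.36 and -3.20, but each on 1 array only, so they did not enter the set.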
